A study of Mus musculus with 8 samples.

Results

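The 9 genes described here carry the signal of leukaemia inhibitory factor (LIF) from the cell surface to the nucleus: the ligand Lif, the receptor chains Lifr and Il6st, the kinases Jak1 and Jak2, the transcription factor Stat3, and the target genes Socs3, Pim1 and Pim3. They were taken by symbol, current or older, from the 16390 different gene symbols on the arrays, and each was matched by 1 probe under its current symbol, with a value on all 8 arrays. The arrays measured mouse cells carrying a Nanog-GFP reporter in 4 groups of 2: E11.5 PGC, primordial germ cells taken at that embryonic stage; Day3 and Day6, such cells kept in culture for 3 and 6 days; and EG, embryonic germ cells, the pluripotent lines that germ cells give rise to in culture. The label 2i+A83 stands on the Day3 and Day6 cultures and on the EG cells, and means PD325901 at 1 µM, which inhibits MEK, CHIR99021 at 3 µM, which inhibits GSK3, and A83-01 at 250 nM, which inhibits the Activin and Nodal receptors. The culture medium was Knockout DMEM with 15% serum replacement (KSR), 2 mM glutamine, nonessential amino acids, 2-mercaptoethanol, LIF and bFGF. Added LIF was therefore part of the medium listed for these cells. Medium and inhibitors are given in the same words for all 8 samples, E11.5 PGC included, and the labels do not say whether those cells met either before harvest. The study's design text says that candidate cells were purified by FACS during culture, without naming a gate for each sample. No label says that the 2 arrays of a group came from separate animals, cultures or lines, so p-values measure the spread between these arrays, which may be technical.

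LIF binds LIFR, which then pairs with gp130, the product of Il6st and the chain shared by the receptors of the interleukin-6 family. JAK kinases bound to the receptor tails phosphorylate gp130, STAT3 docks there, is phosphorylated in turn and enters the nucleus, where it binds promoters and enhancers. SOCS3 is induced by STAT3 and blocks the receptor complex, and PIM1 and PIM3 are serine/threonine kinases induced by the same route. LIF signalling sustains mouse embryonic stem and embryonic germ cells in culture and has long been used to keep primordial germ cells alive there. Transcript levels do not show phosphorylation, so the values below describe the supply of the pathway's parts and of its targets, not STAT3 activity.

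Array medians lay between 19.99 and 20.01 on the linear intensity scale of the deposited values, and 21126 to 22404 of 23473 probes had a value on each array. The 10th percentile of each array lay between 1.96 and 2.75, and Lif, the dimmest member, had 6.14 on its lowest array. The array names show a pair of series. Replicate 1 of every group and EG replicate 2 belong to series A, and replicate 2 of the other 3 groups belongs to series B. What the series marks is not stated. Changes are therefore given without and with the series as a block. The blocked EG values assume the same series difference in every group. The E11.5 PGC arrays were bright in several germ cell genes (Dppa3 10543 and 5303, Dazl 2024 and 1867, Ddx4 626 and 498), while Prdm1 had 19.7 and 44.3. In EG cells, whose source the labels also give as primordial germ cell, Dazl was 39.2 and 124 and Ddx4 201 and 191. Prdm14 was 172 and 123 in E11.5 PGC and 120 and 146 in EG cells, and Zfp42 went from 1416 and 1235 to 5342 and 5250. Of 10 germ cell and pluripotency markers, 5 fell and 1 rose in EG cells (limma, adjusted p under 0.05), where 5.61% of all probes were called lower and 5.57% higher. With the block, 5 fell and 2 rose, where 14.4% and 9.24% were called. In whole cell populations, fewer cells of a type and less RNA per cell cannot be told apart.

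Against E11.5 PGC, the genes moved apart. Stat3 was higher in all 3 later groups, Lif was higher at Day6, Pim3 was higher in EG cells, and Jak2 was lower in EG cells. Both receptor chains, Jak1, Socs3 and Pim1 gave no call in any of the 6 comparisons between groups (limma, adjusted p under 0.05), with or without the array series as a block. At Day3, 1 of the 9 genes rose and 0 fell, where 2.08% of all probes tested were called (1.33% higher and 0.754% lower). At Day6, 2 rose and 0 fell, where 8.61% of probes were called (4.34% higher and 4.28% lower). In EG cells, 2 rose and 1 fell, where 11.2% of probes were called (5.57% higher and 5.61% lower). These 3 comparisons share the E11.5 PGC arrays.

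**Figure D1:**
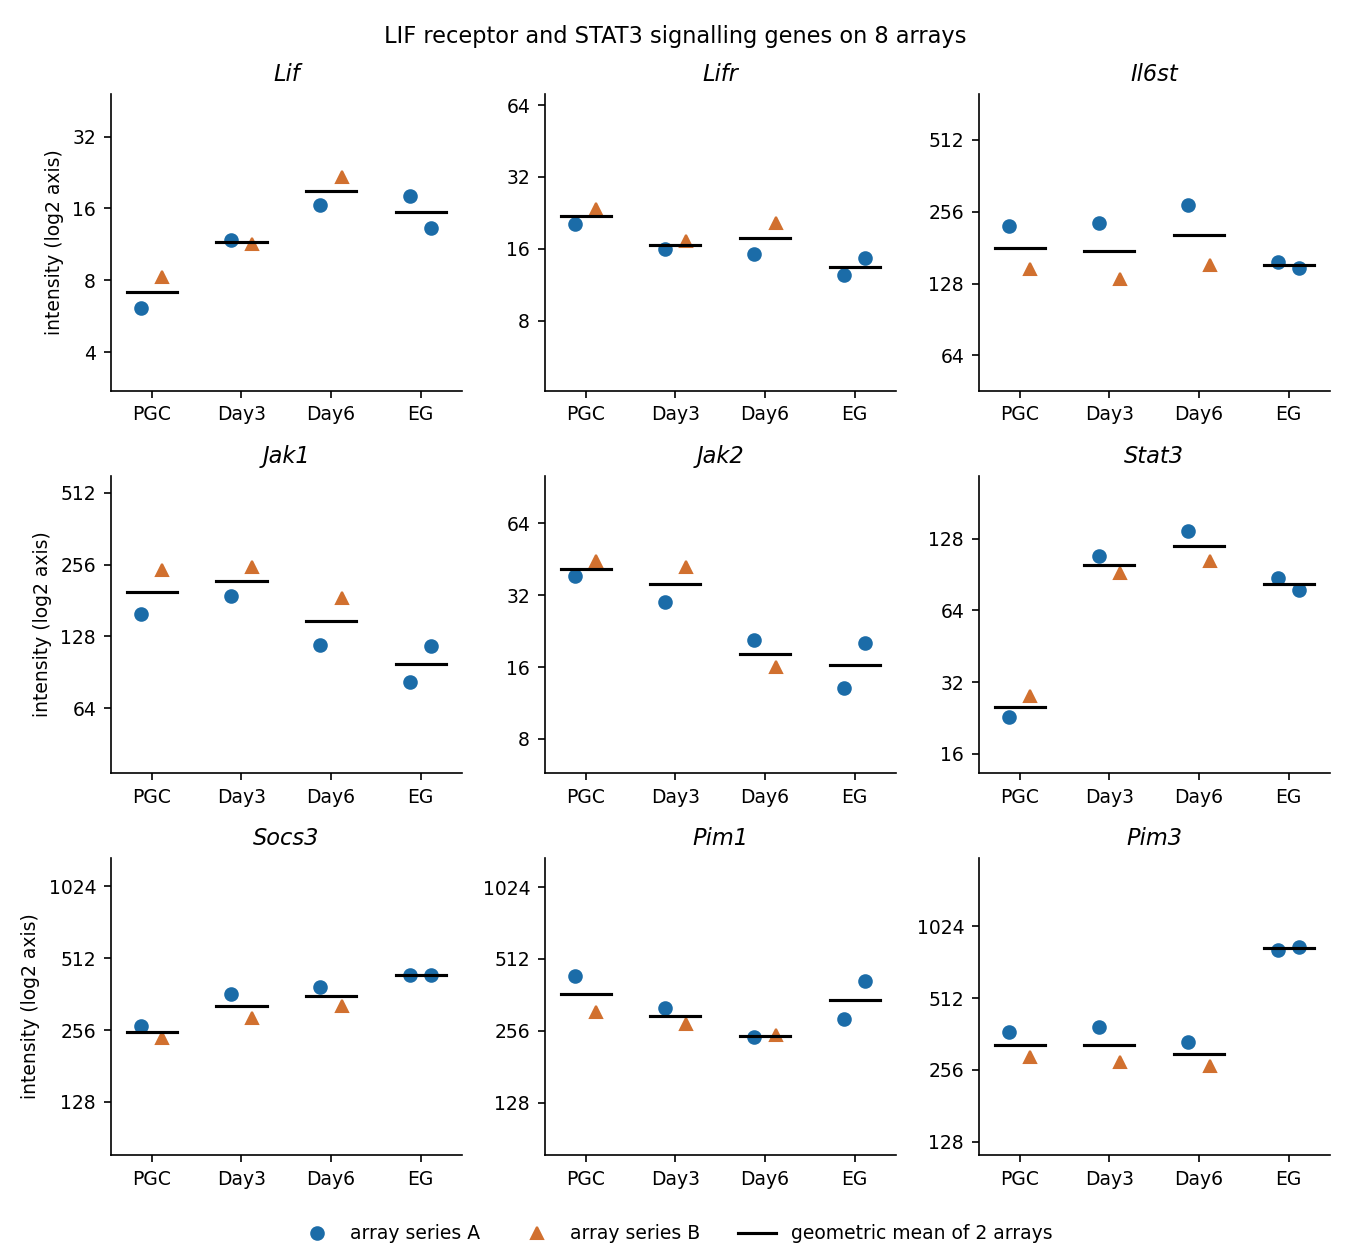
Deposited intensity (log2 axis, each panel spanning the same number of doublings) of the 9 genes on the 8 arrays, by group; circles are arrays of series A, triangles arrays of series B, and bars the geometric mean of the 2 arrays of a group. Stat3 lies between 22.8 and 28.0 in E11.5 PGC and between 78.2 and 137 on the other 6 arrays, and Pim3 lies between 266 and 388 outside EG cells and at 819 and 838 in them.

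With the array series as a block, the counts were 1 rose and 0 fell at Day3, where 8.34% of probes were called (4.34% higher and 4.0% lower). They were 2 and 1 at Day6, where 23.8% were called (9.5% and 14.3%), with Jak2 added. In EG cells they were 3 and 1, where 23.6% were called (9.24% and 14.4%), with Lif added. Without the block, the median change of the 9 genes on the log2 scale was -0.00 at Day3, -0.14 at Day6 and -0.09 in EG cells, beside -0.13, -0.16 and -0.16 over all probes tested. With the block the EG median was -0.20, beside -0.18 over all probes, and the other medians were the same. The arrays of the groups did not overlap for 4 of the 9 genes at Day3, 5 at Day6 and 7 in EG cells, where this held for 41.1%, 49.6% and 64.2% of all probes. It was 4 at Day6 against Day3, 7 in EG cells against Day3 and 6 in EG cells against Day6, with 30.6%, 50.0% and 46.2% of all probes. Between the later groups, limma called 0 of the 9 genes at Day6 against Day3 (0.0% of probes called), 0 in EG cells against Day3 (1.42%) and 0 in EG cells against Day6 (0.169%). With the block these counts were 0 (1.8%), 1 (5.68%) and 1 (1.96%), the call being Pim3 in both comparisons of EG cells. Without the block, an unadjusted limma p under 0.05 was seen at Day6 against Day3 for 1 gene, Jak2, and for 1783 of 20015 probes. In EG cells against Day3 it was seen for 3 genes, Pim3, Jak1 and Jak2, and for 3244 of 20554 probes. Against Day6 it was seen for 1 gene, Pim3, and for 2618 of 20103 probes. A fit without 1 of the 4 arrays of EG cells and E11.5 PGC leaves 1 array in a group and fewer residual degrees of freedom. A call lost in such a fit does not show that it rests on that array. Over all alternative fits, those without 1 array included, the EG change of Stat3 from E11.5 PGC ran from 1.24 to 1.86 on the log2 scale. That of Pim3 ran from 1.11 to 1.54 and that of Jak2 from -1.66 to -0.98.

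The promoters of the 4 genes that were called against E11.5 PGC, and of Socs3, the best known STAT3 target among the members, are shown because STAT dimers bind a palindrome with TT and AA at its ends. Each is the 250 bases before an annotated start, 5′ to 3′ on the gene's strand, from RefSeq on GRCm38.p6. All 9 genes had at least 1 such window. The Socs3 window lies inside the annotated span of that gene (chr11:117966079-117970336), so the sequence before its outermost start was not searched. The Stat3 window overlaps the 5′ end of its gene's span (chr11:100886806-100939594). The windows shown lie at chr11:100939541-100939790 (minus strand) for Stat3, chr11:4257318-4257567 (plus) for Lif, chr11:117969367-117969616 (minus) for Socs3, chr15:88861944-88862193 (plus) for Pim3 and chr19:29251553-29251802 (plus) for Jak2. Capitals mark each match to TTNNNNNAA, where N is any base; the pattern reads the same on both strands.
Stat3: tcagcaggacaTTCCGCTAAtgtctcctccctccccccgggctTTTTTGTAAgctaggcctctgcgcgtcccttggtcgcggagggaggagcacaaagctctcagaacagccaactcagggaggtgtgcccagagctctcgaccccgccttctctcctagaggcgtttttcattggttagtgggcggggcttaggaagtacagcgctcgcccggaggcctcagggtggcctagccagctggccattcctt
Lif: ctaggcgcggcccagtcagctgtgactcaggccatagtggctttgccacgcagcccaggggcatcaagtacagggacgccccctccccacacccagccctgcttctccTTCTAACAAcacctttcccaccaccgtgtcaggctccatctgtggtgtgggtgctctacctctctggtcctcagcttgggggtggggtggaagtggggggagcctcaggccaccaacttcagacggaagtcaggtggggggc
Socs3: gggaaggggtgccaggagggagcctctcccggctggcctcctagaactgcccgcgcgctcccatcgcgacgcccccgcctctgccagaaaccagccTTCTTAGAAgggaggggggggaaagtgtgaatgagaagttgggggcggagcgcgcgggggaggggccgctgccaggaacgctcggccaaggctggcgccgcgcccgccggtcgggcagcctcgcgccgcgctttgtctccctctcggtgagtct
Pim3: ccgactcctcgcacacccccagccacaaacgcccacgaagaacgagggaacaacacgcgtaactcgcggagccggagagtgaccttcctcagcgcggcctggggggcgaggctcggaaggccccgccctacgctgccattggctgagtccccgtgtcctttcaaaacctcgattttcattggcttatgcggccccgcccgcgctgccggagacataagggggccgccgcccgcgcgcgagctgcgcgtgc
Jak2: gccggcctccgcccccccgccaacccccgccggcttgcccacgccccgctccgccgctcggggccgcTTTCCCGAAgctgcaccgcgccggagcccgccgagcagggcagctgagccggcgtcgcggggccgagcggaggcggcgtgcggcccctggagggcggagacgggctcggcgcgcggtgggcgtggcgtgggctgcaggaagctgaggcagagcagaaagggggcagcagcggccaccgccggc

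The window of Stat3 held 2 such matches, at 239 and 207 bases before the start. Lif held 1 at 142, Socs3 1 at 154, Jak2 1 at 183 and Pim3 0. The pattern is common: 55.2% of 32851 windows of this length held it, and so did 8 of the 11 windows of the 9 genes. Pim1 and Lifr had 2 windows each, and 8 of the 9 genes had a match in at least 1 window. Both Lifr windows lie inside the annotated span of that gene (chr15:7090610-7197489, plus strand), so the sequence before its outermost start was not searched. The stricter pattern TTCNNNGAA, whose matches are all matches of the first, stood in 7.02% of windows and in 1 of the 11, that of Socs3 (TTCTTAGAA). TTCCNGGAA, stricter again, stood in 0.913% of windows and in 0 of the 11. A match is a description of letters and not a binding site, and windows farther from the start were not searched.

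Lif, the ligand, had intensities of 6.14 and 8.28 on the E11.5 PGC arrays, 11.8 and 11.4 on those of Day3, 16.5 and 21.7 on those of Day6, and 18.0 and 13.2 on those of EG cells. Both E11.5 PGC arrays were the lowest of the 8, and the Day6 and EG arrays overlapped. At Day6, Lif was 2.65-fold its E11.5 PGC level, a rise of 1.41 ± 0.31 on the log2 scale (± standard error; 2 arrays in each group; limma adjusted p = 0.0358; 0.00987 with the block). The rise was 1.42 within series A and 1.39 within series B. Without the block this call did not hold without any 1 of the 8 arrays: adjusted p ran from 0.0541 without either Day3 array to 0.185 without E11.5 PGC replicate 1. It did not hold with only the 4 arrays compared (0.131). With the block it did not hold without E11.5 PGC replicate 1 or Day6 replicate 2. In EG cells the difference was 1.11 ± 0.31 (limma adjusted p = 0.0631), and with the block it was called (1.24, adjusted p = 0.0194). At Day3 it was 0.70 (95% interval -0.03 to 1.43), without a call. In the order Day6, EG, Day3 and E11.5 PGC, no neighbours differed by a called amount.

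Lifr, the specific receptor chain, was dim, with 20.4 and 23.4 on the E11.5 PGC arrays, 15.9 and 17.3 on those of Day3, 15.3 and 20.6 on those of Day6, and 12.4 and 14.6 on those of EG cells. Its lowest values were the EG arrays and its highest those of E11.5 PGC, except that Day6 replicate 2 lay between the E11.5 PGC arrays. The EG difference from E11.5 PGC was -0.70 (95% interval -1.36 to -0.04; limma adjusted p = 0.161, 0.110 with the block), a level 0.62 times that of E11.5 PGC, without a call.

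Il6st, which encodes the signal-transducing chain gp130, had 222 and 147 on the E11.5 PGC arrays, 229 and 133 on those of Day3, 273 and 153 on those of Day6, and 158 and 149 on those of EG cells. In the first 3 groups replicate 1 (series A) was well above replicate 2 (series B), so the spread within a group exceeded the differences between groups. The span of its group means was the narrowest of the 9 genes, at 0.42 on the log2 scale. Within series A, where EG cells have both arrays, the EG differences on the log2 scale were -0.54 from E11.5 PGC, -0.58 from Day3 and -0.84 from Day6. The blocked EG difference from E11.5 PGC was -0.61 (95% interval -1.11 to -0.12; limma adjusted p = 0.0785), against -0.24 without the block, and neither was a call.

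Jak1, the kinase with a main role in gp130 signalling, had 160 and 242 on the E11.5 PGC arrays, 190 and 250 on those of Day3, 118 and 186 on those of Day6, and 82.5 and 117 on those of EG cells. Replicate 2 was above replicate 1 in every group, and both EG arrays lay below all others. The EG level was 0.50 times that of E11.5 PGC, a difference of -1.0 (95% interval -1.88 to -0.12), with a limma adjusted p of 0.139 (0.0859 with the block, at -0.73). Against Day3 the EG difference was -1.15 (limma adjusted p = 0.202; 0.0985 with the block).

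Jak2, a second kinase of the receptor complex that also serves the receptors of erythropoietin and growth hormone, had 38.3 and 44.5 on the E11.5 PGC arrays, 30.0 and 42.2 on those of Day3, 20.8 and 15.9 on those of Day6, and 13.1 and 20.2 on those of EG cells. The 4 Day6 and EG arrays lay below the 4 of E11.5 PGC and Day3. In EG cells Jak2 fell by 1.34 ± 0.34 on the log2 scale (limma adjusted p = 0.0482; -1.29 and 0.0355 with the block), to 0.39 times its E11.5 PGC level. At Day6 the difference was of like size, -1.18 ± 0.34, and missed the threshold (limma adjusted p = 0.0814), while the blocked model called it (0.0367). It was -0.88 within series A and -1.48 within series B. The blocked Day6 call did not hold when any 1 array of E11.5 PGC, Day3 or Day6 was left out. The EG call lay just under the threshold. It did not hold with arrays centred on the probes measured on all of them (adjusted p = 0.0578), nor, with or without the block, when any 1 array of E11.5 PGC, Day3 or EG was left out (adjusted p up to 0.28). Day6 against Day3 gave -0.96 (limma adjusted p = 0.435) and EG against Day3 -1.13 (0.172).

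Stat3 had 22.8 and 28.0 on the E11.5 PGC arrays, 108 and 91.5 on those of Day3, 137 and 103 on those of Day6, and 87.9 and 78.2 on those of EG cells. Every array after E11.5 PGC lay above both E11.5 PGC arrays. Stat3 rose by 1.98 ± 0.28 on the log2 scale at Day3 (3.94-fold; limma adjusted p = 0.0219, 0.00801 with the block), by 2.24 ± 0.28 at Day6 (4.72-fold; 0.00578 and 0.00221) and by 1.72 ± 0.28 in EG cells (3.29-fold; 0.0135 and 0.0079). Its group means spanned 2.24 on the log2 scale, the widest span of the 9 genes. Within series A the differences from E11.5 PGC were 2.25 at Day3, 2.59 at Day6 and 1.86 in EG cells, and within series B 1.71 and 1.89 at Day3 and Day6.

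The Day6 call of Stat3 held without each of the 8 arrays in turn (limma adjusted p from 0.0108 to 0.0482). The Day3 call held without either Day6 array and did not hold without either array of E11.5 PGC, Day3 or EG (adjusted p up to 0.153). Leaving out an EG array leaves the Day3 and E11.5 PGC values as they are, and changes the shared estimate of the spread and its degrees of freedom. The Day3 call also did not hold with only the 4 arrays compared (0.0854). With the block the Day3 call did not hold without either Day3 array. The EG call did not hold without either E11.5 PGC array or either EG array (adjusted p up to 0.112). From Day3 on, the level was not seen to move by a called amount: Day6 against Day3 was 0.26 (95% interval -0.41 to 0.93), EG against Day3 -0.26 (-0.93 to 0.41) and EG against Day6 -0.52 (-1.19 to 0.15). Those intervals leave room for changes of up to 0.93 on the log2 scale upward at Day6 against Day3 and for -1.19 in EG cells against Day6.

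Socs3, the feedback inhibitor, had 267 and 237 on the E11.5 PGC arrays, 363 and 288 on those of Day3, 390 and 324 on those of Day6, and 435 and 434 on those of EG cells. Both E11.5 PGC arrays were the lowest and both EG arrays the highest. The differences from E11.5 PGC were 0.36 at Day3 (95% interval -0.27 to 0.99), 0.50 at Day6 (-0.13 to 1.13) and 0.79 in EG cells (0.16 to 1.42). The EG difference, 1.73-fold, was not called (limma adjusted p = 0.111; 0.0577 with the block), but it was called after quantile normalization (0.0335). Within series A these differences were 0.44, 0.54 and 0.70, and within series B 0.28 and 0.45 at Day3 and Day6.

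Pim1, a kinase that promotes survival and growth, had 435 and 306 on the E11.5 PGC arrays, 320 and 273 on those of Day3, 240 and 245 on those of Day6, and 286 and 412 on those of EG cells. The arrays of E11.5 PGC, Day3 and EG overlapped, and those of Day6 were the lowest. The Day6 difference from E11.5 PGC was -0.59 (95% interval -1.33 to 0.15; limma adjusted p = 0.313, 0.146 with the block).

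Pim3, a close relative of Pim1, had 370 and 290 on the E11.5 PGC arrays, 388 and 276 on those of Day3, 334 and 266 on those of Day6, and 819 and 838 on those of EG cells. The first 3 groups overlapped throughout, and both EG arrays lay above all others. In EG cells Pim3 rose by 1.34 ± 0.30 on the log2 scale over E11.5 PGC (2.53-fold; limma adjusted p = 0.0334; 1.14 and 0.0113 with the block). At Day3 and Day6 the differences were -0.00 (95% interval -0.71 to 0.71) and -0.14 (-0.84 to 0.57). EG cells differed from Day3 by 1.34 and from Day6 by 1.48 ± 0.30 (2.78-fold), which limma did not call (adjusted p = 0.0862 and 0.119) and the blocked model did (1.14 with 0.0312, and 1.28 with 0.0428). The blocked call against Day3 did not hold without either Day3 or either EG array, and that against Day6 did not hold without any 1 of the 8 arrays. Within series A the EG differences were 1.16 from E11.5 PGC, 1.09 from Day3 and 1.31 from Day6. The call against E11.5 PGC did not hold without either E11.5 PGC array or either EG array (limma adjusted p up to 0.201).

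**Figure D2:**
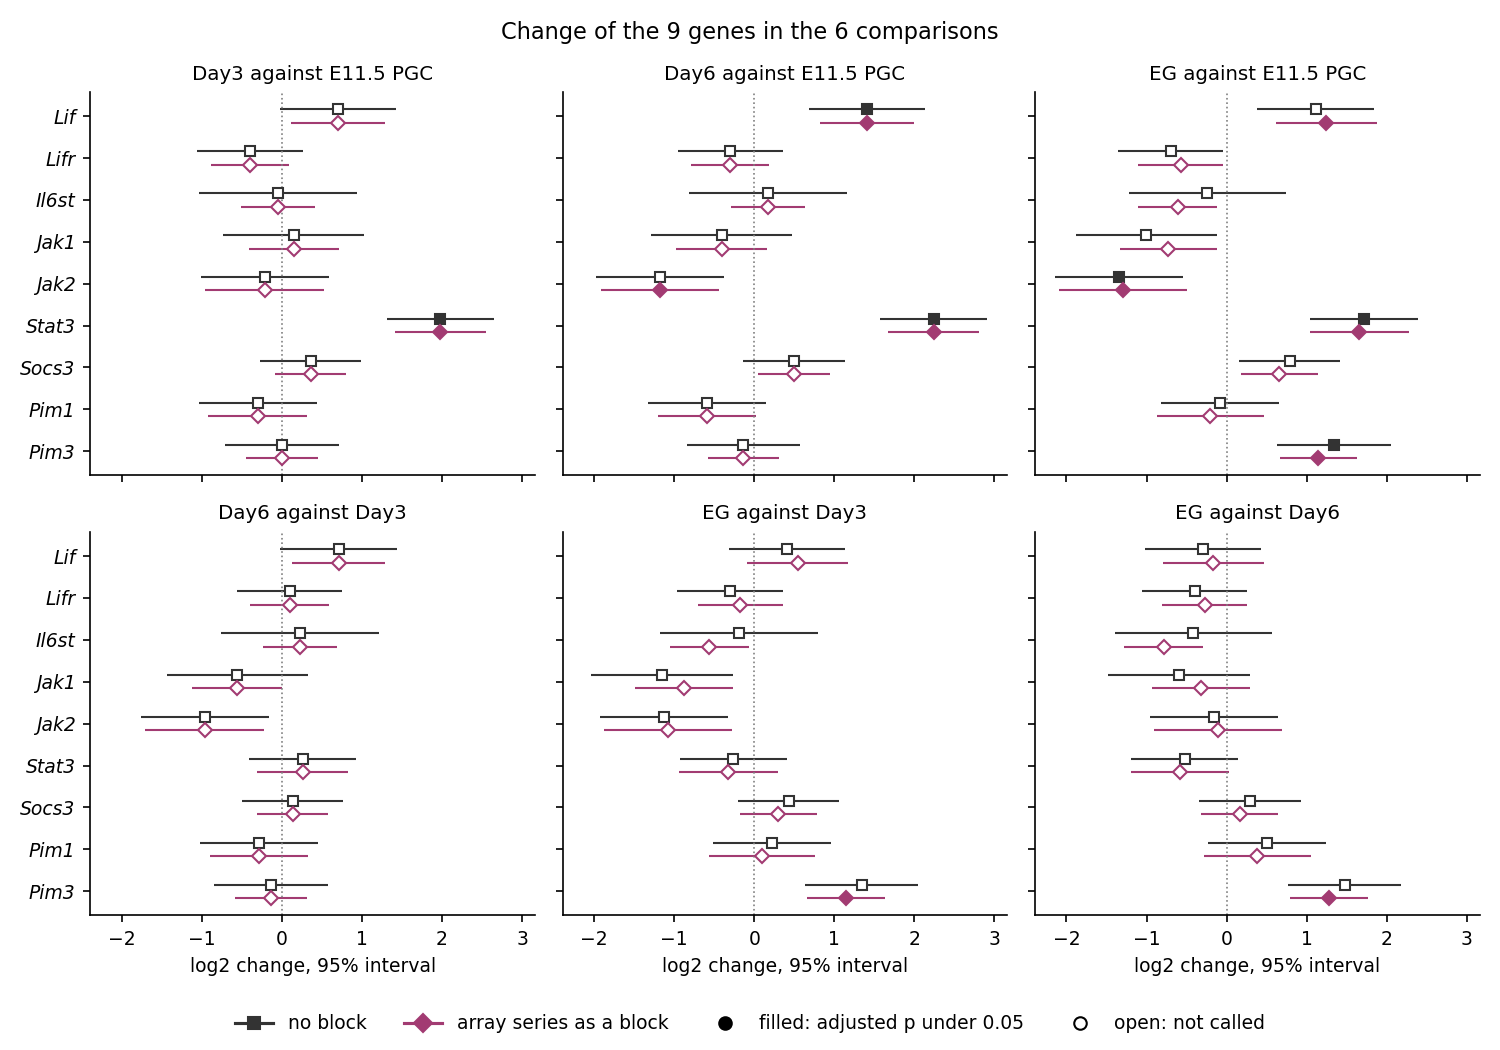
Change of each of the 9 genes on the log2 scale, with its 95% interval, in the 6 comparisons between groups; dark squares come from the fit without a block, purple diamonds from the blocked fit, and filled symbols passed an adjusted p of 0.05. Stat3 is filled in the 3 comparisons with E11.5 PGC and open in the other 3, and Pim3 is filled in EG cells against E11.5 PGC in both models and against Day3 and Day6 in the blocked model.

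Genes with the most similar profiles over the 8 arrays were sought among 5661 genes whose group means spanned at least 1 on the log2 scale. The 8 arrays share their scaling and the array series, so Pearson's r is given as a description. For Stat3 they were Gng10 (r = 0.990), which went from 35.4 and 44.7 in E11.5 PGC to 224 and 231 at Day6, Pdha1 (0.990), a subunit of pyruvate dehydrogenase that went from 352 and 393 to 1128 and 905, and Aldh1l2 (0.989), which was dim, with 1.28 to 3.91. For Pim3 they were Mirt1 (0.991), Iqcg (0.980) and Gmfg (0.980), of which Iqcg had 169 and 143 in EG cells and between 34.0 and 59.2 elsewhere. For Jak2 they were Ccdc126 (0.972), Ctso (0.953) and Trappc12 (0.952), and for Lif G6pd2 (0.977), Morc1 (0.972) and Hspbap1 (0.964). For Jak1 they were Mxd1 (0.991), Acvr1 (0.984) and Cab39 (0.978), and each of these 3 was brighter on replicate 2 than on replicate 1 in all 4 groups, as Jak1 was.

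Among the other ligands of the interleukin-6 family, 0 of 7 tested rose and 1 fell at Day3, 0 rose and 2 fell at Day6, and 0 rose and 1 fell in EG cells. The shares of all probes called lower were 0.754%, 4.28% and 5.61%. Ebi3, a subunit shared by the cytokines interleukin-27 and interleukin-35, had 45.1 and 58.0 on the E11.5 PGC arrays, 3.31 and 5.70 on those of Day3, 6.27 and 6.58 on those of Day6, and 9.93 and 9.62 on those of EG cells. It fell by 3.56 ± 0.33 on the log2 scale at Day3 (limma adjusted p = 0.00661), by 2.99 at Day6 (0.00391) and by 2.39 in EG cells (0.00775). Ctf1, which encodes cardiotrophin-1, a ligand that also uses the LIFR and gp130 pair, fell by 2.57 at Day6 (limma adjusted p = 0.027), from 67.7 and 68.6 to 13.1 and 10.1. Its Day3 arrays had 40.3 and 21.3 and its EG arrays 36.8 and 13.7; the EG difference was called with the block. The median change of the list was -0.03 at Day3, -0.39 at Day6 and -0.00 in EG cells, beside -0.13, -0.16 and -0.16 over all probes. With the block the EG median was -0.17, beside -0.18 over all probes.

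Of 4 other receptor chains tested, 0 changed at Day3 and Day6 and 1 rose in EG cells, Il27ra, whose E11.5 PGC values of 1.79 and 1.55 lay below the highest 10th percentile of the arrays (2.75). Osmr, the oncostatin M receptor chain that pairs with gp130, had 2.44 and 3.59 on the E11.5 PGC arrays, 13.6 and 6.23 on those of Day3, 30.0 and 3.82 on those of Day6, and 4.63 and 2.33 on those of EG cells, and gave no call. Of 7 other JAKs and STATs tested, 0 changed at Day3, Stat5a rose at Day6, and Stat5a and Stat6 rose in EG cells. Stat6, the transcription factor of interleukin-4 signalling, had 14.4 and 8.14 on the E11.5 PGC arrays, 41.3 and 16.9 on those of Day3, 57.1 and 33.2 on those of Day6, and 124 and 121 on those of EG cells. Its EG rise was 3.50 ± 0.51 on the log2 scale (limma adjusted p = 0.00915). Of all probes, 4.34% were called higher at Day6 and 5.57% in EG cells. With the block 1 rose at Day3 (Stat6), 2 rose at Day6 (Stat5a and Stat6) and 3 rose in EG cells (Stat5a, Stat6 and Stat2, the last by 1.40 with a limma adjusted p of 0.0258). The blocked shares of all probes called higher were 4.34%, 9.5% and 9.24%. Tyk2, a JAK kinase with 224 and 180 in E11.5 PGC and 112 and 108 at Day6, fell at Day6 with the block (-0.87; limma adjusted p = 0.0211, against 0.0922 without it). Stat5a was dim, with 1.36 and 3.02 in E11.5 PGC.

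Of 14 negative regulators tested beside Socs3, 0 changed at Day3, 1 rose and 2 fell at Day6, and 1 rose and 4 fell in EG cells. Over all probes, 1.33%, 4.34% and 5.57% were called higher in these comparisons, and 0.754%, 4.28% and 5.61% lower. The list median was -0.28, -0.45 and -0.52, each below that of all probes. Ptpn6, the phosphatase SHP-1, had 346 and 374 on the E11.5 PGC arrays, 179 and 114 on those of Day3, 55.7 and 67.2 on those of Day6, and 62.7 and 62.9 on those of EG cells. It fell by 2.56 at Day6 (limma adjusted p = 0.00494) and by 2.52 in EG cells (0.00517). Socs2, an inhibitor of growth hormone signalling, had 2082 and 3241 in E11.5 PGC and 629 and 366 in EG cells, and fell by 2.23 at Day6 (limma adjusted p = 0.0361) and by 2.44 in EG cells (0.0242). Socs4 and Socs5 fell in EG cells, while Pias3, which encodes an inhibitor of STAT3's binding to DNA, rose by 1.56 at Day6 and by 1.88 in EG cells (limma adjusted p = 0.0324 and 0.0163). Socs1 gave no call, with 28.0 to 35.6 over all 8 arrays. With the block 1 fell at Day3, 1 rose and 5 fell at Day6, and 2 rose and 5 fell in EG cells. The blocked shares over all probes were 4.34%, 9.5% and 9.24% higher, and 4.0%, 14.3% and 14.4% lower.

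The adaptors that link gp130 to the RAS and PI3-kinase routes moved both ways. Of 9 tested at Day3, 0 changed. At Day6, 2 of 8 rose and 1 fell, and in EG cells 2 of 9 rose and 2 fell. Gab1, a docking protein for SHP-2 and PI3-kinase, had 198 and 177 on the E11.5 PGC arrays, 584 and 396 on those of Day3, 779 and 624 on those of Day6, and 817 and 747 on those of EG cells, and rose by 1.90 at Day6 (limma adjusted p = 0.0116) and by 2.06 in EG cells (0.00874). Akt1, the kinase downstream of PI3-kinase, had 208 and 434 in E11.5 PGC and 59.4 and 52.5 in EG cells, and fell by 2.13 at Day6 (limma adjusted p = 0.0268) and by 2.43 in EG cells (0.0161). Ptpn11, which encodes SHP-2, fell in EG cells by 1.22 (limma adjusted p = 0.0384), and Pik3r1, a dim probe, rose at Day6 and in EG cells. The median of the list in EG cells was -0.79 without the block and -0.34 with it. With the block 1 rose and 3 fell at Day3, 4 rose and 4 fell at Day6, and 2 rose and 4 fell in EG cells. Over all probes tested, 2.08%, 8.61% and 11.2% were called in these comparisons without the block, and 8.34%, 23.8% and 23.6% with it.

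Among other genes reported as targets of STAT3 or LIF, 2 of 24 rose at Day3, 4 of 24 rose at Day6 and 4 of 23 rose in EG cells, while 0, 0 and 1 fell. Of all probes, 1.33%, 4.34% and 5.57% were called higher in these comparisons, and 0.754%, 4.28% and 5.61% lower. With the block, 4 rose and 0 fell at Day3, 7 rose and 1 fell at Day6, and 6 rose and 1 fell in EG cells. Beside these, 4.34%, 9.5% and 9.24% of probes were called higher, and 4.0%, 14.3% and 14.4% lower. The list median was 0.34, 0.21 and 0.67 on the log2 scale (0.33 in EG cells with the block), beside -0.13, -0.16 and -0.16 over all probes (-0.18 in EG cells with the block). Sgk1, a kinase of ion transport and survival, had 150 and 100 on the E11.5 PGC arrays, 687 and 536 on those of Day3, 758 and 780 on those of Day6, and 561 and 590 on those of EG cells. It rose by 2.31 at Day3 (limma adjusted p = 0.0161), by 2.65 at Day6 (0.00413) and by 2.23 in EG cells (0.00717). Mcl1, which encodes a protein that blocks cell death, had 417 and 249 in E11.5 PGC and 2264 and 2432 in EG cells, where it rose by 2.86 ± 0.38 (limma adjusted p = 0.00662). Klf4 rose in all 3 groups, Bcl3, an IκB family protein, rose at Day6 by 2.87 (limma adjusted p = 0.0147) from 6.89 and 4.16, and Icam1, a cell adhesion molecule, by 1.37 (0.04). Vegfa, the growth factor for blood vessels, rose in EG cells by 1.70 over E11.5 PGC and by 2.14 over Day3 (limma adjusted p = 0.0181 and 0.0308). Il4ra, a chain of the interleukin-4 receptor, fell in EG cells by 1.46 (0.0262). Tfcp2l1, Gbx2 and Myc, which are often named beside Klf4 as LIF targets in mouse stem cells, gave no call without or with the block, and Klf5 was called with the block alone, at Day3, Day6 and in EG cells (1.19, 0.73 and 1.18).

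**Figure D3:**
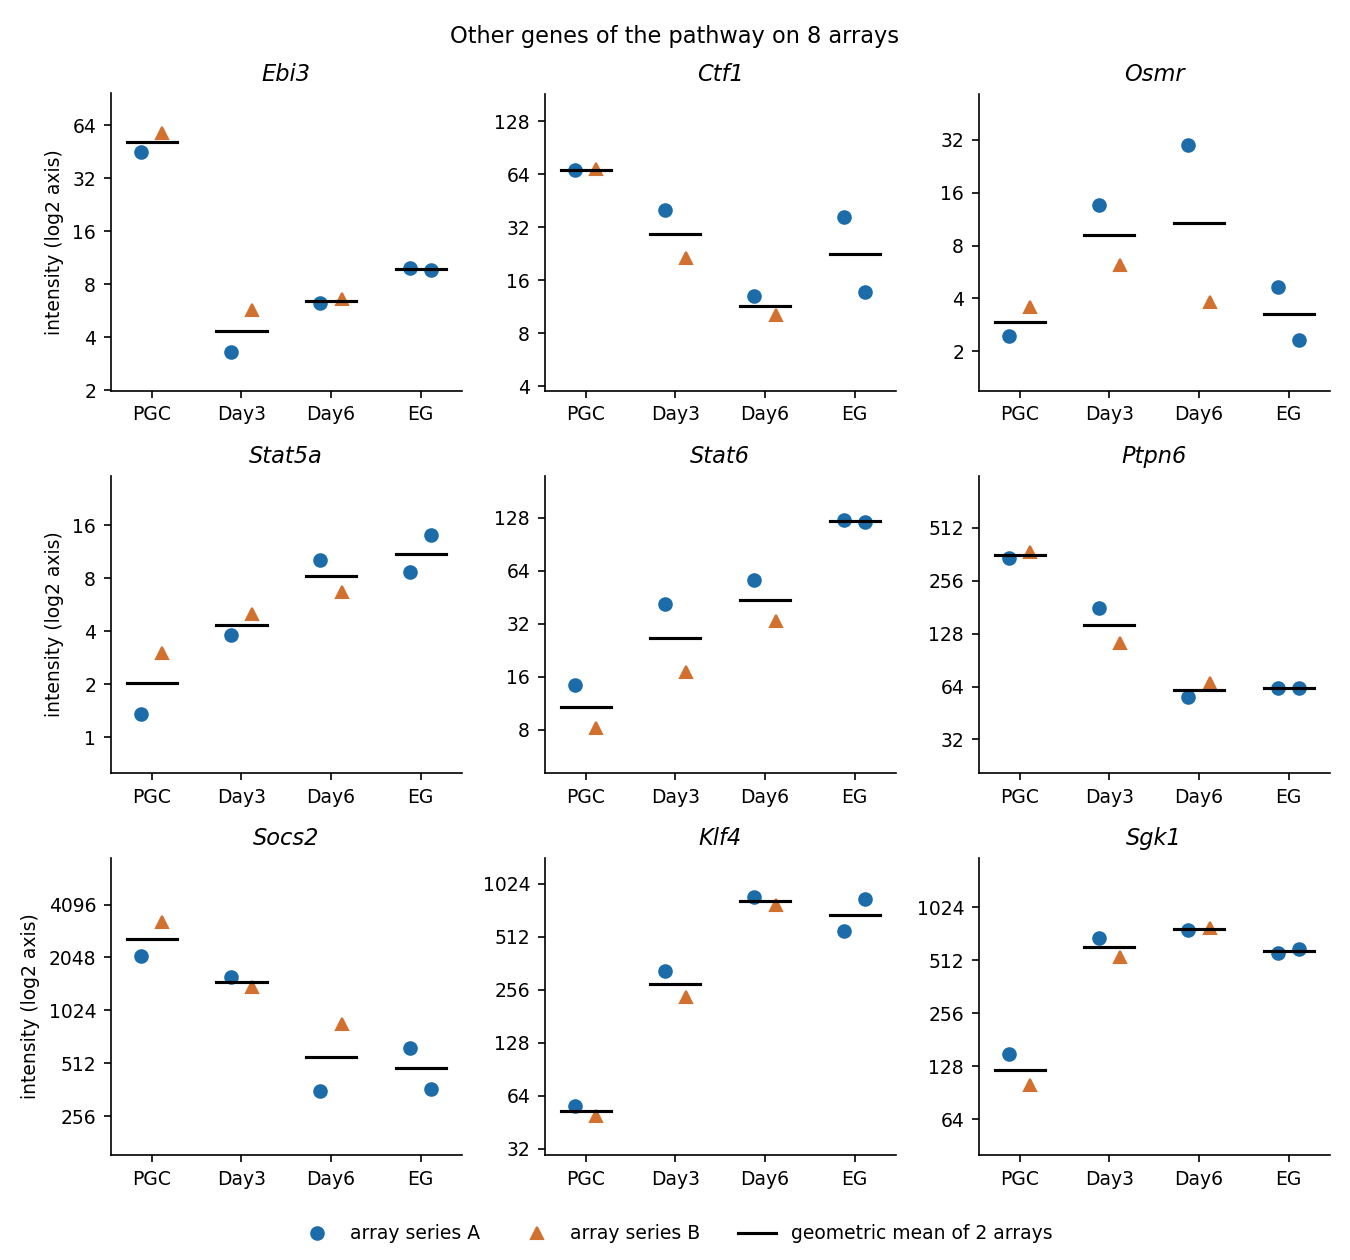
Deposited intensity (log2 axis, each panel spanning the same number of doublings) of 9 other genes of the pathway on the 8 arrays, by group; circles are arrays of series A, triangles arrays of series B, and bars the geometric mean of the 2 arrays of a group. Ebi3, Ctf1, Ptpn6 and Socs2 are highest in E11.5 PGC, while Stat6, Klf4 and Sgk1 are lowest there; Osmr is high on Day6 replicate 1 (30.0) and low on Day6 replicate 2 (3.82).

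Markers of other cell types also differed between arrays. The summed intensity of 15 fibroblast and mesenchyme markers was 1160 and 1510 on the E11.5 PGC arrays, 2390 and 1790 on those of Day3, 5650 and 2650 on those of Day6, and 2820 and 2050 on those of EG cells, so it was lowest where Stat3 and Lif were lowest. Of these 15 markers 1 rose at Day3 (Dcn) and 0 were called at Day6 or in EG cells without the block (limma). With the block 1 rose at Day3 (Dcn), 3 at Day6 (S100a4, Fn1 and Thy1) and 1 in EG cells (S100a4). The shares of all probes called higher were 1.33%, 4.34% and 5.57% without the block, and 4.34%, 9.5% and 9.24% with it. S100a4 had 4.04 and 1.48 in E11.5 PGC, 1335 and 13.2 at Day6 and 808 and 190 in EG cells. Thy1 had 4.64 and 1.99 in E11.5 PGC, 747 and 10.7 at Day6 and 96.6 and 71.0 in EG cells. Fn1 and Vim made up most of the sum on every array except Day6 replicate 1, where they had 1256 and 1546 of 5650. Postn stayed between 1.85 and 3.78 and Lum between 5.58 and 11.4 on all arrays. Day6 replicate 1, with the highest sum, was also the highest array for Acta2 (198), Col1a2 (129), Stat3 (137) and Osmr (30.0), but Lif was higher on Day6 replicate 2 (21.7) than on replicate 1 (16.5). Dcn was 75.9 and 173 at Day3 and 16.3 and 6.32 in EG cells, where Stat3 was 87.9 and 78.2. Summed blood markers (5 of 10 with a probe) were 138 and 156 in E11.5 PGC and 334 and 347 in EG cells, where Pim3 was also high. Most of that sum in EG cells was Cd68, and Ptprc, which marks all white blood cells, stayed between 2.81 and 5.74. Tyrobp went the other way, from 43.3 and 34.6 in E11.5 PGC to 11.2 and 10.4 in EG cells. Of 4 blood markers tested, Tyrobp fell at Day3, at Day6 and in EG cells, and Cd68 rose in EG cells. Both held without and with the block (limma). The shares of all probes called lower were 0.754%, 4.28% and 5.61% without the block, and 4.0%, 14.3% and 14.4% with it. The sum of 10 gonadal somatic markers was 57.3 and 78.5 in E11.5 PGC and 174 and 178 in EG cells, mostly Amhr2 (136 and 143). Of 8 tested at Day6, Amhr2 rose and Lhx9 fell, and of 9 tested in EG cells, Amhr2 rose (limma, without and with the block). Of 8 tested at Day3, 0 were called without the block, and with it Amhr2 rose and Lhx9 fell. The part of these markers in the changes of Stat3, Lif and Pim3 was not tested.

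**Figure D4:**
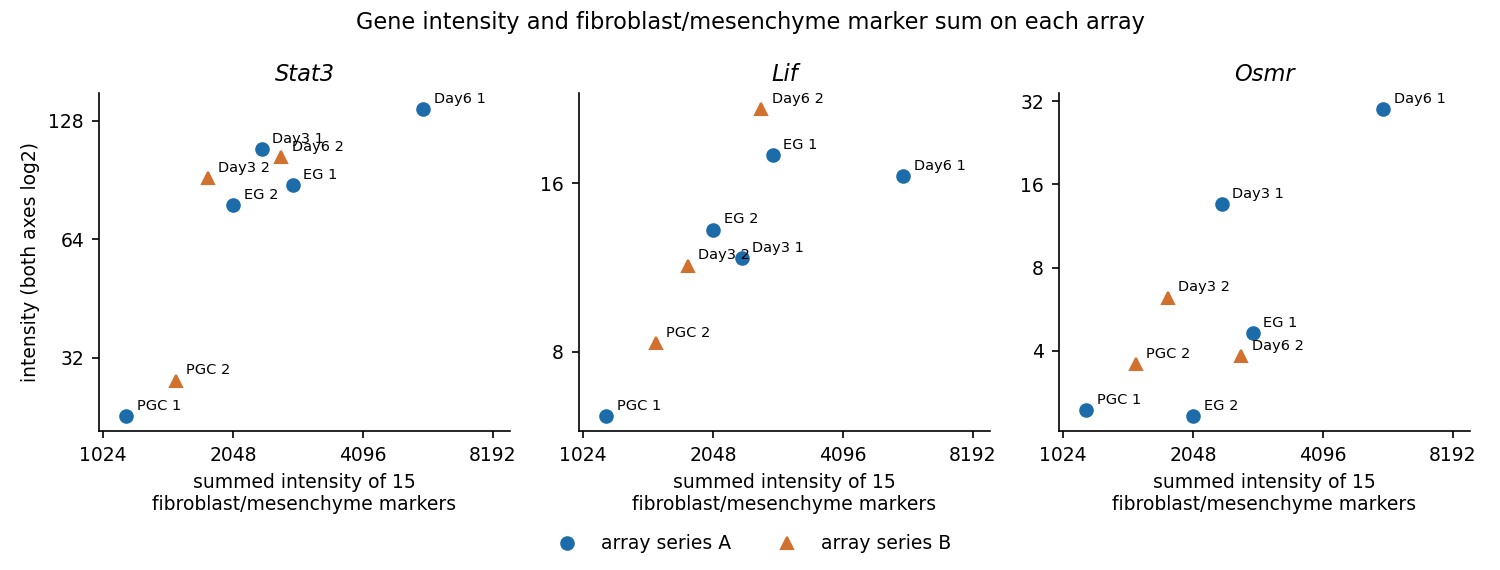
Intensity of Stat3, Lif and Osmr on each of the 8 arrays against the summed intensity of 15 fibroblast and mesenchyme markers on the same array (both axes log2); circles are arrays of series A and triangles arrays of series B. The 2 E11.5 PGC arrays have the lowest sums (1160 and 1510) and the lowest Stat3 and Lif, and Day6 replicate 1 has the highest sum (5650) with Osmr at 30.0.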

How the data were processed

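RNA of the 8 samples was amplified as aminoallyl aRNA and hybridised to TORAY 1-colour arrays, per the labels' protocols. The authors deposited linear spot intensity, scaled so that array medians lay near 20; how background and scaling were handled, and why cells are missing, is not given in the sources used. The values were converted to log2 without further normalization. Symbols came from the platform annotation, updated through a RefSeq GRCm38.p6 gene table: 16631 probes had 1 symbol (3947 updated from synonyms) and 6842 had none. The brightest probe stood for a gene. limma 3.58.1 in R 4.3.3 fitted all 8 arrays and 4 groups (4 residual degrees of freedom), with two-sided moderated tests and Benjamini-Hochberg adjustment over probes with values on all arrays of both groups, at 0.05. Missing values stayed missing. The script was tested on simulated data. The rule for naming genes of a list took the 4 with most calls in the 6 comparisons, then the largest change. Osm, Ctf2, Il6ra, Cntfr and Stat4 also met it, had 0 calls and are not described above. Tyk2, Mcl1, Icam1, Il4ra, Klf5, Tfcp2l1, Gbx2, Myc, Socs1, Socs4 and single markers were named after their values were seen. The genes, lists, tests and settings were chosen with earlier results of these data known.

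Replicate numbers were checked by correlating deviations from group means over 19524 probes: r was 0.620, 0.547 and 0.694 among E11.5 PGC, Day3 and Day6, whose numbers follow the array series, and -0.025, 0.005 and 0.061 with EG. The numbers therefore do not pair all groups, and the array series served as the block.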

Additional observations from a re-analysis of the deposited data

How the results depend on the processing

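The precision is limited by 2 arrays per group, and the labels do not say whether they are biological replicates. The rise of Stat3 at Day6 kept its call under all settings run (limma adjusted p from 0.00221 to 0.0482). The count of the 9 genes called at Day3 against E11.5 PGC was 0 with only the 4 arrays compared, and 0 to 1 without 1 array, with or without the series block. At Day6 it was 1 with only those 4 arrays, 1 without any 1 array, and 1 to 3 with the block and without 1 array. In EG cells against E11.5 PGC it was 5 with the replicate block, 0 to 3 without 1 array, and 0 to 4 with the series block and without 1 array. Against Day3 it was 1 with the series block or quantile normalization, 2 with the replicate block, 0 without any 1 array, and 0 to 1 with the series block and without 1 array (settings added after seeing the data); against Day6 it was 1 with the series block and 0 otherwise. Centring on probes measured on all arrays ended the Jak2 call in EG cells against E11.5 PGC (adjusted p = 0.0578). The cause of these moves was not tested, except that fits on fewer arrays have fewer residual degrees of freedom.

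The numbers 1 and 2 pair the samples only where they follow the array series. The replicate block added Jak1 and Lif in EG cells against E11.5 PGC (adjusted p = 0.0307 and 0.0458) and Jak1 and Pim3 in EG cells against Day3 (0.0493 and 0.0399), and it ended no call.

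Small changes without a call turned sign. Pim3 at Day3 against E11.5 PGC was 0.081 after quantile normalization and 0.033 after centring on probes measured on all arrays, and Pim1 in EG cells against E11.5 PGC was 0.15 after quantile normalization. Without 1 array, the log2 changes that turned sign ranged as follows. For Day3 against E11.5 PGC it ran for Pim3 from -0.245 to 0.245, Il6st from -0.441 to 0.343, Jak1 from -0.15 to 0.45 and for Jak2 from -0.463 to 0.032. For Day6 against E11.5 PGC it ran for Pim3 from -0.311 to 0.041 and for Il6st from -0.246 to 0.596. For EG against E11.5 PGC it ran for Pim1 from -0.348 to 0.178 and for Il6st from -0.538 to 0.057. For Day6 against Day3 it ran for Socs3 from -0.03 to 0.304, Pim3 from -0.38 to 0.11, Lifr from -0.119 to 0.312 and for Il6st from -0.197 to 0.645. For EG against Day3 it ran for Pim1 from -0.045 to 0.481 and for Il6st from -0.584 to 0.201. For EG against Day6 it ran for Il6st from -0.836 to 0.006 and for Jak2 from -0.475 to 0.15. The alternative of the dimmest probe per gene was not run, since each member has 1 probe.

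Over all probes the number called ranged, over the settings that keep all arrays or the 4 compared, from 67 to 1725 at Day3 against E11.5 PGC, 578 to 4790 at Day6, 2237 to 4905 in EG cells, 0 to 361 at Day6 against Day3, 193 to 1167 in EG cells against Day3 and 0 to 395 against Day6; without 1 array it ranged from 4 to 555, 430 to 1652, 232 to 2809, 0 to 0, 0 to 422 and 0 to 6.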
